A study of Mus musculus with 11 samples.

Results

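Whole skin of 3 ΔETreg mice, from which early skin-seeding regulatory T cells (Tregs) had been depleted, was compared gene by gene with the skin of 2 Treg-sufficient control mice. The 5 libraries, labelled EarlyDT and PBS, are part of a series of 11. All animals carried the Foxp3-DTR allele on a C57BL/6J background, in which the diphtheria toxin (DT) receptor and GFP are driven from the Foxp3 locus, so that DT acts on Foxp3-expressing cells of the whole body and not on Tregs of the skin alone. ΔETreg mice received DT at 30 ng per g on postnatal day 6 (P6) and P8 and were harvested on P9, whereas control mice received PBS. The other groups are used here for levels only. ΔLTreg mice (LateDT) received DT on P10 and P12, and ΔTreg mice (FullDT) on P6, P8, P10 and P12, with 3 mice in each and a harvest on P13. The study calls its compared groups age-matched, with control and ΔETreg skin set against each other at P9. No label gives the day on which control skin was taken, and the same 2 control mice are the controls for both harvest days here. No group received DT without the receptor, so that toxin and Treg loss cannot be told apart, and a part of age in the differences was not tested. The comparison asks which transcripts of whole skin differed 1 day after the last of the 2 early doses.

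Tregs restrain other lymphocytes and myeloid cells, through cytokine consumption, inhibitory receptors and secreted factors, and in neonatal skin they settle around the growing hair follicles. When they are removed, T cells and natural killer cells can release interferon-γ and TNF. Interferon-γ acts on genes of guanylate-binding proteins, immunity-related GTPases and MHC class I molecules, and TNF acts through NF-κB on adhesion molecules, chemokines and NF-κB subunits. Stress and growth factor signals reach the immediate early genes, among them the AP-1 and ATF families, within an hour. Skin at this age is in hair growth, with hair matrix, keratinocytes, fibroblasts, fat, nerve, vessels and thin muscle all contributing RNA to a biopsy.

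The 5 libraries held 23377571 to 30571811 counts, which is the depth behind every value below. By Xist and the Y-linked Ddx3y, the control mice were 1 male and 1 female and the ΔETreg mice 2 males and 1 female. Keratins of the epidermis and hair were abundant in all 5 (Krt17 between 3169 and 3670.1 CPM, the count scaled to library size by the TMM method). Foxp3 itself, the target of the toxin, had 0.700 and 0.558 CPM in control mice and 0.348, 0.526 and 0.471 in ΔETreg mice. All 3 ΔETreg values were below both controls, but the log2 fold change of -0.49 (standard error 0.323) ranked 2839 by p and did not pass, and Foxp3 transcripts were still detected in each. The paper reported efficient depletion of skin Tregs on P9 by flow cytometry, which measures the share of cells and not RNA. In bulk tissue, fewer cells of a type and less RNA per cell cannot be told apart. Nothing in the labels links the libraries beyond 1 mouse each, so p-values measure the spread between mice. That spread was estimated within groups over all 11 libraries in 1 fit, and so not from these 5 mice alone.

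Differences between ΔETreg and control skin were small. Of 18375 genes that passed the filter on low counts, 1 had an adjusted p under 0.05 (edgeR's quasi-likelihood test, Benjamini-Hochberg adjustment), which is 0.00544%. That count was 0 with edgeR on the 5 libraries alone, with at least 10 counts required in each and with sex as a covariate, 10 and 18 with DESeq2 on all 11 and on the 5 libraries, and 54 in edgeR with no filter beyond 1 count. At an unadjusted p under 0.05 there were 872 genes, or 4.75%, where 5% is what such a threshold passes when no gene differs. They were 471 genes higher (2.56%) and 401 lower (2.18%) in ΔETreg skin, a split that became 675 higher and 155 lower when libraries were scaled by their totals alone. With 3 mice against 2, the values did not overlap for 3616 genes (19.7%), 1718 of them higher (9.35%) and 1898 lower (10.3%), and 801 genes (4.36%) met both conditions. Among the 13639 genes with a mean count of at least 50, the middle 90 of each 100 lay between log2 fold changes of -0.21 and 0.20, 129 exceeded 0.5 in size and 13 exceeded 1. Between the 2 control mice, 719 such genes were more than 0.5 apart on the log2 scale, and between pairs of ΔETreg mice, 440 to 522. Genes are described below with these shares as the background.

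**Figure D1:**
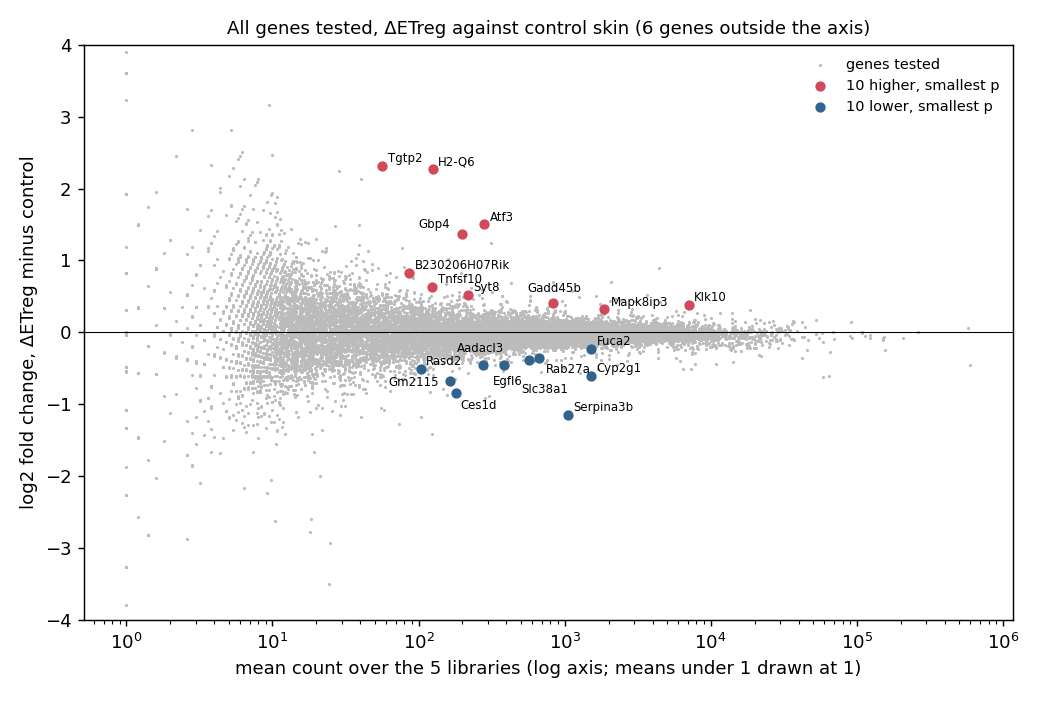
Each point is 1 of 18375 genes, with its mean count over the 5 libraries (log axis) against its log2 fold change, ΔETreg minus control, and 6 genes lie outside the axis. Red and blue points are the 10 genes with the smallest p in each direction whose groups did not overlap and whose mean count was at least 50, of which Tgtp2 at 2.32 and H2-Q6 at 2.27 were the highest and Serpina3b at -1.15 the lowest.

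The gene that passed adjustment was Atf3 (GRCm38 chromosome 1, 191170296 to 191218039), a bZIP transcription factor of the ATF/CREB family that is kept low at rest and is induced by many kinds of cell stress. It had 4.94 CPM in both control mice and 12.5, 13.1 and 16.6 CPM in ΔETreg mice, a 2.84-fold rise. The log2 fold change was 1.504 (SE 0.170), and the adjusted p was 0.0482 by the edgeR test named above. ΔLTreg skin had 13.5, 11.5 and 9.86 CPM and ΔTreg skin 15.6, 15.2 and 12.7, so that all 9 toxin-treated mice lay above both controls. Atf3 was chosen by its ΔETreg values, and each group is set against the same 2 control mice. Directly compared in the same edgeR fit, ΔETreg differed from ΔLTreg by 0.27 (adjusted p = 0.286) and from ΔTreg by -0.05 (adjusted p = 0.849) on the log2 scale. A difference between regimens was therefore not resolved for Atf3. With all mice kept, its adjusted p was far below 0.05 in at least 1 alternative analysis. It missed 0.05 in edgeR on the 5 libraries (0.0716), with at least 10 counts in each (0.0504) and with sex as a covariate (0.0786). It also missed 0.05 when any of the 5 mice was left out, at 0.0853 to 1, although the fold change then stayed between 1.37 and 1.59 on the log2 scale.

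The bases before the RefSeq start of Atf3, shown because this gene carries the single call, held the letters ACGTCA (on either strand, in capitals), the core of the cAMP response element, 8 bases before the start. That start lies inside the longer gene interval given above. Of 32851 mouse promoters of this length, 6.47% hold these letters, which were chosen after the sequence had been read. Sequences here are the 250 bases before the start in RefSeq on GRCm38.p6, 5′ to 3′ on the strand of the gene.
Atf3, chr1:191183334-191183583, minus strand: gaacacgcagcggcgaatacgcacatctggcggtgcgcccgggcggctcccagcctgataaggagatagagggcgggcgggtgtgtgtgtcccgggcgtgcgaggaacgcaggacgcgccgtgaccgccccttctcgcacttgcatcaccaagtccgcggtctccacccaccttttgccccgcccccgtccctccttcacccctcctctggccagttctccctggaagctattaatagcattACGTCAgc

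Atf3 did not stand for its whole family. Of 25 immediate early and AP-1 genes, all of which passed the filter, 5 were higher at an unadjusted p under 0.05 and none lower in edgeR. Over all genes these shares were 2.56% and 2.18%. In the list, 8 were higher without overlap, against 9.35% of all genes. A positive fold change was seen for 22 of 25, with a median of 0.09 against -0.01 over all genes. After Atf3 came Fosl1, the FRA-1 subunit of AP-1, at 3.78 and 3.39 CPM in control mice and 4.70, 5.52 and 5.01 in ΔETreg mice (log2 fold change 0.50, standard error 0.141). Ier2 had 92.5 and 87.7 CPM against 102, 96.7 and 106, and Klf6 119 and 105 against 128, 123 and 123. Nr4a3, an orphan nuclear receptor, was the last of the 5, at 3.22 and 4.14 CPM against 4.46, 5.13 and 4.67. In each of these genes every ΔETreg mouse exceeded both controls, with log2 fold changes from 0.16 for Klf6 to 0.50 for Fosl1. The classical members overlapped: Fos had 24.7 and 18.6 CPM in control and 17.7, 18.7 and 20.1 in ΔETreg skin, and Jun 200.1 and 174 against 198, 195 and 215. With 1 mouse left out at a time, 3 or 4 members were higher under 0.05, and the median ran from 0.02 without control mouse 2 to 0.18 without control mouse 1.

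Tgtp2 and H2-Q6, genes known to be induced by interferon, had the largest fold differences among the 10 genes with the smallest p in each direction. Tgtp2, an immunity-related GTPase that attacks the vacuoles of intracellular parasites, had 0.841 and 0.359 CPM in control mice and 3.27, 2.20 and 3.81 in ΔETreg mice, a 4.98-fold difference that ranked 4 by p. H2-Q6, a non-classical MHC class Ib gene, had 1.37 and 1.39 CPM against 7.87, 6.74 and 5.23, a 4.81-fold difference that ranked 5. Gbp4, a guanylate-binding protein, had 4.62 and 2.83 against 10.1, 6.34 and 13 CPM. In none of these did a ΔETreg mouse overlap a control mouse, and none passed adjustment in the main analysis. Each of them did pass in at least 1 alternative analysis with all mice kept, and none did when a ΔETreg mouse was left out. Passing in at least 1 alternative was not particular to them. Klk10, Serpina3b and Cyp2g1, given below, also did so with all mice kept. Tgtp1 (0.630 and 0.319 against 2.40, 1.54 and 2.53 CPM), Iigp1 (8.55 and 4.10 against 14.9, 11.3 and 19.5) and H2-Q7 (4.66 and 2.51 against 7.38, 7.23 and 7.37) were picked with their values in view and also did not overlap. Tgtp1 and Tgtp2 are near copies, as are the H2-Q genes, so that how uniquely mapped reads were divided within each family is uncertain.

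The same was not seen at the widely expressed members of the class I pathway or at several other interferon-stimulated genes, which were likewise chosen after their values were seen. H2-D1 had 321 and 293 CPM in control and 321, 327 and 330 in ΔETreg skin, and B2m, the shared light chain of class I molecules, 132 and 112 against 123, 132 and 129. H2-K1 was slightly higher in all 3 ΔETreg mice (193 and 170 against 201, 220 and 220). Isg15 had a log2 fold change of -0.59 and Ifit1 of -0.63, both with overlapping values, and for the last of these control mouse 1 had 5.15 CPM and control mouse 2 1.04. Higher levels were present in the later groups. H2-Q6 reached 19.7, 17.9 and 8.89 CPM in ΔLTreg and 187, 182 and 170 in ΔTreg skin, and ΔETreg lay below ΔTreg by 4.75 on the log2 scale (log2 fold change -4.75, adjusted p = 7.28e-07 in edgeR). Gbp4 differed from ΔTreg by -3.15 (adjusted p = 4.07e-06) and from ΔLTreg by -1.03 (adjusted p = 0.0222). Those groups were also 4 days older at harvest than ΔETreg mice, so that regimen and age cannot be told apart in these contrasts.

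**Figure D2:**
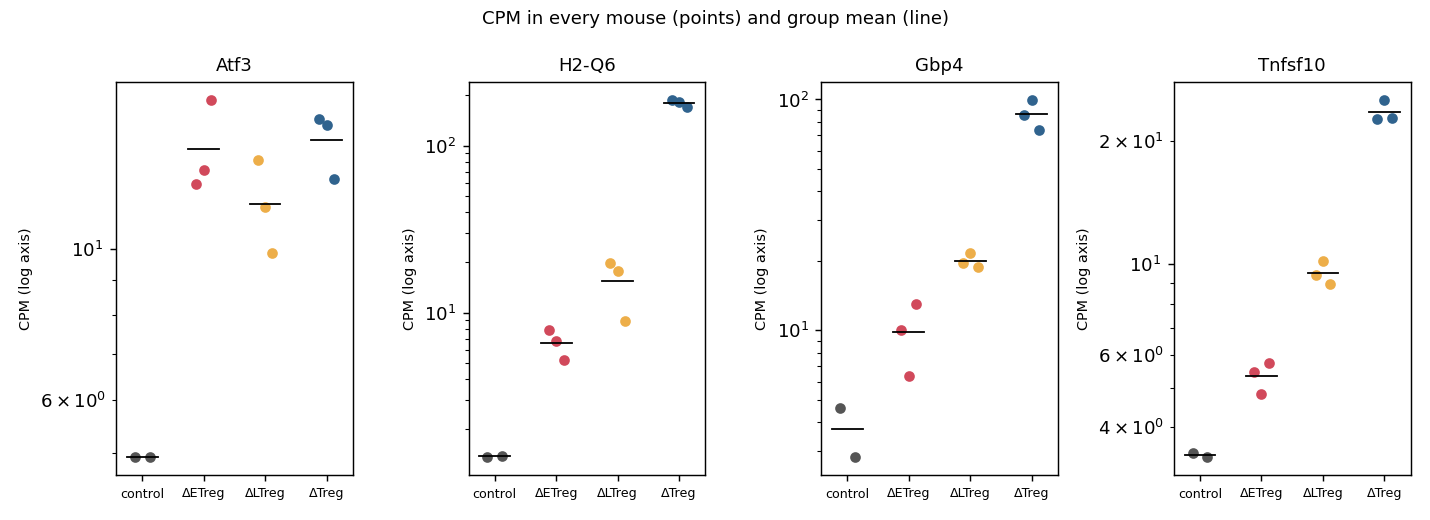
Points are CPM (log axis) of single mice for Atf3, H2-Q6, Gbp4 and Tnfsf10 in control (n = 2), ΔETreg, ΔLTreg and ΔTreg skin (n = 3 each), and lines are group means. Atf3 stood at a like level in all 3 toxin-treated groups (9.86 to 16.6 CPM), whereas H2-Q6 lay between 5.23 and 7.87 CPM in ΔETreg and between 170 and 187 CPM in ΔTreg skin.

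Tnfsf10 encodes TRAIL, a TNF-family ligand that can induce death of target cells, and had 3.47 and 3.39 CPM in control mice and 5.47, 4.83 and 5.74 in ΔETreg mice (1.56-fold, rank 8 by p). Some genes of the NF-κB pathway, for which there was no list, were chosen once their values had been seen, and the first 4 had differences from 1.22-fold for Nfkb2 to 1.38-fold for Map3k14. Tnfaip3, the feedback inhibitor A20, had 21.2 and 18.8 CPM in control and 24.6, 26.2 and 25.5 in ΔETreg skin. Nfkb2, the p100 subunit, had 33.8 and 31.1 against 38.3, 40.3 and 40.7, and its partner Relb 12.3 and 10.2 against 13.6, 15.1 and 15.7. Map3k14, the NIK kinase that drives p100 processing, had 7.78 and 6.21 against 9.02, 9.76 and 10.3. In each of these genes the ΔETreg mice lay above both controls. Other members did not show this, or showed it less, and no difference between members was tested. The canonical subunit Rela had 70.3 and 68.0 against 67.7, 72.7 and 73.2 CPM and a log2 fold change of 0.04, and Nfkb1 one of 0.08. Nfkbia overlapped (57.0 and 48.0 against 54.3, 54.2 and 57.0 CPM).

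Among products of NF-κB signalling, Icam1, the adhesion molecule of inflamed endothelium and keratinocytes, was the 1 of 16 endothelial genes at an unadjusted p under 0.05, with 18.9 and 16.5 CPM in control and 23.1, 24 and 22 in ΔETreg skin. No other endothelial gene was at that threshold in edgeR (list median -0.01). Of 20 inflammatory cytokine and chemokine genes, 2 were higher and none lower at that threshold in edgeR, against 2.56% and 2.18% of all genes. Cxcl2, a neutrophil-attracting chemokine, had 3 and 0 counts in control mice and 16, 18 and 10 in ΔETreg mice, at or under the floor of 3 counts per library in control skin and above it in all 3 ΔETreg mice. Its relative Cxcl1 had 9 and 2 counts in control against 18, 21 and 7, so that 1 ΔETreg mouse lay between the controls. Counts this low are imprecise, and neither gene was kept when 10 counts were required in every library. Il1b (1.09 and 0.717 against 0.627, 0.624 and 0.771 CPM), Tnf (1.44 and 1.23 against 1.29, 1.77 and 1.29) and Cxcl10 (4.20 and 1.83 against 2.54, 2.86 and 3.08) did not pass.

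Promoters of 5 of these genes are shown for the letters before their starts, since interferon and NF-κB act on DNA through known elements. Capitals mark matches on either strand to GAS (TTCNNNGAA, the interferon-γ activated site), the ISRE core (GAAANNGAA), κB (GGANTTTCC), AP-1 (TGANTCA) and the core ACGTCA named above. In Tgtp1 and Tgtp2, a GAS match and an ISRE core match stood together, 88 and 77 bases before the start in Tgtp1 and 81 and 70 in Tgtp2. A κB match lay 121 bases before the start of Tgtp1, 153 before Icam1, 24 before Tnfaip3 and 96 before Cxcl2. Another RefSeq start of Tnfaip3, which is not printed, had no match of any kind in its window. Of 32851 promoters, 7.02% hold GAS, 7.13% the ISRE core, 6.75% AP-1 and 1.07% κB. The genes were chosen from their values, so that their matches are a description and no enrichment. The 5 genes printed are all genes with matches. Of other genes read, H2-Q7 had no GAS, ISRE core or κB match. Nfkb2 had a κB match at 1 of its starts, 224 bases before it, and Cxcl1 had a κB match 70 bases before the start. No match of any of these was found in the windows of H2-Q6 and Tnfsf10. Only these letters were searched, so that a window without a match may still hold another form of an element.
Tgtp1, chr11:48992247-48992496, minus strand: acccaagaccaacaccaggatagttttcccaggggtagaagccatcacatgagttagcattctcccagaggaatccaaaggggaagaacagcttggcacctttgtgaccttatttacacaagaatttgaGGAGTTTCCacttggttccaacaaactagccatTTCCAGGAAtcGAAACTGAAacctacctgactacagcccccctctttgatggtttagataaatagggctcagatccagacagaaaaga
Tgtp2, chr11:49064213-49064462, minus strand: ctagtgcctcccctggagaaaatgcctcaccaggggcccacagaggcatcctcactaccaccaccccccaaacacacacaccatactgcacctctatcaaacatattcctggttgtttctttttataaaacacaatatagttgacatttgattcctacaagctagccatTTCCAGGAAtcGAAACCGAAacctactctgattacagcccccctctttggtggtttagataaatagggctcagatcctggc
Icam1, chr9:21015690-21015939, plus strand: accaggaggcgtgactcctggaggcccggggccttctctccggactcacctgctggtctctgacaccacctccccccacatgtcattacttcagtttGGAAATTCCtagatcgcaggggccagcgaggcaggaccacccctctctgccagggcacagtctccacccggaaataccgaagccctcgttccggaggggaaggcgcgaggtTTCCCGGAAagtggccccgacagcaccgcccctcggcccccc
Tnfaip3, chr10:19015411-19015660, minus strand: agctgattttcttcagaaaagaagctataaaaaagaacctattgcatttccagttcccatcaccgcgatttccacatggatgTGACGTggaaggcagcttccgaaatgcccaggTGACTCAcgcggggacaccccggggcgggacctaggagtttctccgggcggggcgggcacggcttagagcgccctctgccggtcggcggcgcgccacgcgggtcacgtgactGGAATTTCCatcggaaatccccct
Cxcl2, chr5:90903649-90903898, plus strand: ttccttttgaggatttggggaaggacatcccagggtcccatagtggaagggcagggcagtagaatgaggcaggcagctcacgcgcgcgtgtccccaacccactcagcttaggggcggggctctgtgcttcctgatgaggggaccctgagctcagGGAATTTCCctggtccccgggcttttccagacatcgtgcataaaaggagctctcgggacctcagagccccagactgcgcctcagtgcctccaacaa

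Klk10, Gadd45b, Mapk8ip3, Syt8 and B230206H07Rik were the remaining genes among the 10 with the smallest p in the higher direction. Klk10, a kallikrein-related serine protease of the upper epidermis, was abundant and tight, with 226 and 214 CPM in control and 286, 283 and 291 in ΔETreg skin (1.30-fold, rank 7). A pair of further secreted serine proteases, named after their values were seen, also did not overlap. Klk6 had 50.6 and 44.7 CPM against 73.1, 69.2 and 60.3, and Prss22 18.0 and 17.1 against 24.1, 22.4 and 25.8. Gadd45b, a stress and TNF-inducible regulator of MAP kinase signalling, had 27.4 and 23.5 against 31.2, 33.4 and 36.6 CPM. Mapk8ip3, the JIP3 scaffold of JNK signalling, had 63.5 and 54.0 against 74.9, 74.2 and 71.4. Syt8, a synaptotagmin, had 6.48 and 6.13 against 9.09, 9.07 and 9.13, and the non-coding B230206H07Rik 2.42 and 1.87 against 4.39, 3.58 and 3.51. Their differences lay between 1.25-fold for Mapk8ip3 and 1.78-fold for B230206H07Rik.

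In keratinocyte lists, single genes differed and the lists did not. Of 11 wound and stress keratinocyte genes tested, 2 were higher and 1 lower at an unadjusted p under 0.05, against 2.56% and 2.18% of all genes. Krt6a, a keratin of the activated epidermis and of the hair companion layer, had 396 and 364 CPM in control and 460, 465 and 454 in ΔETreg skin, and the EGF receptor ligand Hbegf 13.9 and 14.5 against 16.9, 15.9 and 19.9. S100a9, a subunit of the calprotectin alarmin, went the other way, from 2.03 and 1.79 to 1.15, 1.15 and 1.07 CPM (log2 fold change -0.76). Its partner S100a8 overlapped (8.02 and 11 against 9.58, 6.61 and 7.46). Krt16, the usual partner of Krt6a, did not follow (47.4 and 47.7 against 38.6, 55.0 and 51.0). Of 20 cornified envelope genes, Rptn was higher (24.3 and 19.9 against 29.3, 44.9 and 33.3) and Lce1f lower (17.1 and 14.2 against 9.19, 13.7 and 12.1), around a list median of -0.09. For loricrin, Lor, ΔETreg mouse 1 had the lowest level of the 5 at 2259.8 CPM against 3082 to 4172 in the others.

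Genes lower in ΔETreg skin included secreted, lipid-metabolic and follicle-associated products. Serpina3b, a serine protease inhibitor, had 52.2 and 64.7 CPM in control and 23.6, 22 and 33.8 in ΔETreg skin, a 2.22-fold difference that was the largest of the 10 genes named in this direction. The carboxylesterase Ces1d had 9.04 and 9.20 against 3.69, 5.88 and 5.74 CPM, the cytochrome P450 Cyp2g1 62.6 and 79.7 against 46.1, 45.5 and 48.6, and the esterase-like Aadacl3 12 and 12.1 against 8.46, 9.33 and 8.65. Each of these 3 enzymes was at a higher level in ΔLTreg skin than in ΔETreg skin, with a log2 difference, ΔETreg minus ΔLTreg, of -1.31 for Ces1d (adjusted p = 0.00235 in edgeR), -1.16 for Cyp2g1 (adjusted p = 0.000536) and -0.74 for Aadacl3 (adjusted p = 0.00116). Cyp2g1 and Aadacl3 were also at a higher level in ΔTreg skin, which had the early doses too. Their log2 differences, ΔETreg minus ΔTreg, were -0.41 (adjusted p = 0.0184 in edgeR) and -0.72 (adjusted p = 0.000139). ΔLTreg and ΔTreg skin was taken on P13 and ΔETreg skin on P9, so that age differs between those groups as well. Egfl6, a matrix protein laid down by hair follicle stem cells for the arrector muscle and nerve endings, had 17.3 and 16.2 CPM in control and 12.4, 12.7 and 11.7 in ΔETreg skin. ΔLTreg mice had 11.5, 11 and 10.6, and ΔTreg mice 6.47, 6.18 and 5.94. All 9 toxin-treated mice lay below both controls for Egfl6, the 3 ΔETreg mice by the rule that chose this gene. ΔTreg lay below ΔETreg (ΔETreg minus ΔTreg 0.99 on the log2 scale, adjusted p = 8.03e-06 in edgeR).

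The remaining genes of that group were Gm2115 (7.95 and 7.53 CPM in control, 4.88, 4.6 and 5.10 in ΔETreg skin), the amino acid transporter Slc38a1 (23.7 and 25 against 19.9, 17.5 and 18.5), the fucosidase Fuca2 (59.9 and 62.4 against 51.4, 51.6 and 53.9), the small GTPase Rasd2 (4.69 and 4.54 against 3.17, 3.35 and 3.21) and Rab27a. Rab27a, which links melanosomes to the actin motor in melanocytes and also serves granule release in other cells, had 26.8 and 29.6 CPM against 22.6, 20.8 and 22.5. Slc38a1, Rasd2 and Rab27a, like Egfl6, were below both controls in all 9 toxin-treated mice. For the 3 ΔETreg mice this was set by the rule that chose these genes. How many of all genes lay so in all 9 mice is not given here. In ΔLTreg mice, which had no early doses, Gm2115 had 8.11, 6.90 and 7.05 CPM. Since the same 2 control mice served for each regimen, a value that is off in those mice enters every comparison with them.

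**Figure D3:**
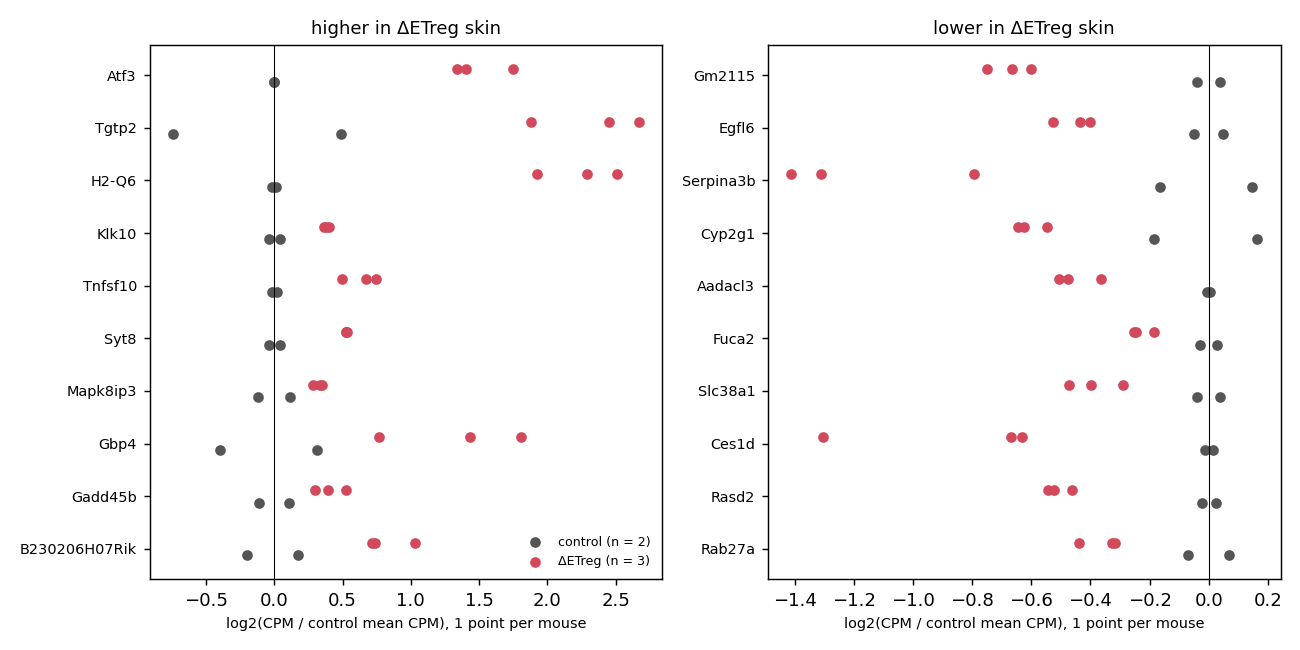
For the 10 genes with the smallest p in each direction, each point is 1 mouse, placed at the log2 ratio of its CPM to the control mean CPM (control n = 2, grey, ΔETreg n = 3, red). The groups do not overlap by the rule that chose these genes, and the spread between ΔETreg mice was least for Syt8 (9.07 to 9.13 CPM).

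Immune cell lists gave few members past the threshold. Of 14 Treg genes, Tnfrsf4 (OX40), a costimulatory receptor of Tregs and of activated T cells, was the 1 gene at an unadjusted p under 0.05 and was higher, at 2.14 and 2.15 CPM in control and 2.89, 3.02 and 2.96 in ΔETreg skin. Ctla4 (0.455 and 0.120 against 0.174, 0.131 and 0.171 CPM) and Il2ra (0.560 and 0.159 against 0.313, 0.559 and 0.686) were wide apart between the control mice, near the lower limit of the depth. Summed over the 14 Treg genes, control mice had 42.4 and 38.4 CPM, ΔETreg mice 39.7, 42.1 and 43.3, ΔLTreg mice 46.2 to 51.1 and ΔTreg mice 78.6 to 90.1. The sum overlapped between ΔETreg and control mice and was highest in ΔTreg mice, whose Foxp3 level (0.386, 0.564 and 0.556 CPM) overlapped that of control mice. None of the 15 T cell, 14 cytotoxic lymphocyte, 8 γδ T cell, 6 B cell or 16 macrophage genes tested was at that threshold in edgeR on all 11 libraries. In other settings with all mice kept, up to 3 macrophage genes and 1 cytotoxic gene were, the most with no filter beyond 1 count. Ifng had 0.105 and 0 CPM in control and 0.104, 0 and 0 in ΔETreg skin, which is at or under 3 counts in each, and its level could not be compared at this depth.

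Mast cells, which store proteases and histamine in dermal granules, had the immune list with most members lower without overlap, 8 of 15 genes against the background of 10.3%. Their median log2 fold change was -0.30. The granule proteases Cma1 (39.8 and 41.2 CPM in control, 33.1, 33.0 and 26.5 in ΔETreg skin), Mcpt4 (44.8 and 47.0 against 39.8, 38.9 and 34.8), Cpa3 (22.7 and 26.6 against 20.8, 21.3 and 18.5) and Tpsb2 (27.3 and 30.6 against 26.9, 23.1 and 19.4) lay in the same order of groups, and none of these 4 was at an unadjusted p under 0.05. The 2 genes at that threshold, both lower, were Kit and the low-count Tpsab1. Kit, the stem cell factor receptor of mast cells and of melanocytes alike, had 67.9 and 68.0 CPM against 63.2, 53.9 and 47.9, and Tpsab1 15 and 9 counts against 5, 3 and 0. An IgE receptor chain, Ms4a2, and the mast cell receptor Mrgprb2 had positive fold changes (0.12 and 0.17). ΔETreg mouse 3 had the lowest level of Kit and of each of the 4 proteases, and without it the list median was -0.22. DESeq2 on the 5 libraries placed 6 of the 15 genes under 0.05.

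The monocyte and neutrophil list had the lowest median, -0.68 over 12 genes tested, and 1 control mouse stood apart in it. Ccr2, the receptor of recruited monocytes, had 11.1 CPM in control mouse 1, 3.23 in control mouse 2 and 2.33, 3.42 and 2.31 in ΔETreg mice. Ly6c2 had 2.49 CPM in control mouse 1 and 0.120 to 0.263 in the other 4. Without control mouse 1 the median was -0.18. S100a9 and Csf3r were the 2 members at an unadjusted p under 0.05, both lower, and Csf3r (2.21 and 0.558 against 0.174, 0.526 and 0.343 CPM) shared the high value of that mouse, whereas S100a9 did not. The macrophage receptor Fcgr1 (5.99 in control mouse 1, 2.23 in control mouse 2 and 1.63 to 1.78 in ΔETreg mice) followed the same mouse.

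Schwann cells wrap the nerves of the skin in myelin, and their list had the highest median of the 47, 0.43 over 16 genes. Of these, 6 were higher at an unadjusted p under 0.05 and none was lower in edgeR, against 2.56% and 2.18% of all genes. Without overlap, 4 were higher, against 9.35% of all genes. Mbp, myelin basic protein, had 59.5 and 50.3 CPM in control and 144, 66.8 and 56.6 in ΔETreg skin. The high value belongs to ΔETreg mouse 1. Without it, the median was 0.12 and 1 gene was under 0.05, and without control mouse 2 none was, at a median of 0.45. Ncmap, Mal (11.3 and 10.5 against 19.5, 13.6 and 13.2), which epithelial cells express as well, Drp2 (6.51 and 5.98 against 13, 8.38 and 7.37) and Prx (38.1 and 35.6 against 70.5, 45.1 and 39.7) were above both controls in all 3 mice. Sox10, the transcription factor shared by Schwann cells and melanocytes, had no such level (31.5 and 31.9 against 31.7, 24.1 and 29.9), nor had S100b. How much nerve each biopsy held was not measured.

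**Figure D4:**
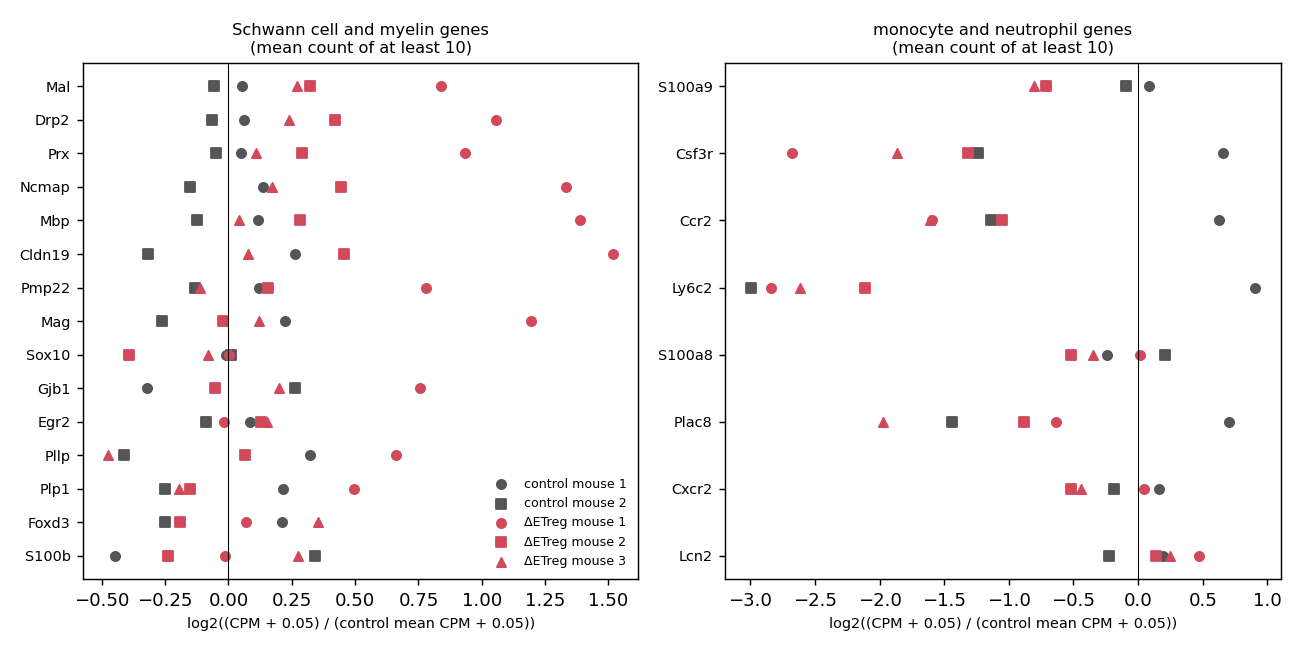
Points are single mice, placed at the log2 ratio of CPM to the control mean with 0.05 added to both, for Schwann cell and myelin genes (left) and monocyte and neutrophil genes (right) with a mean count of at least 10 that are reported here. ΔETreg mouse 1 stands apart at the myelin genes (Mbp 144 CPM against 50.3 to 66.8 in the other 4) and control mouse 1 at Ccr2, Ly6c2, Csf3r and Plac8 (Ccr2 11.1 against 2.31 to 3.42 CPM).

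Hedgehog signalling drives the growth of the hair follicle. Of 21 hedgehog, BMP and Notch genes, 2 were higher and none lower at an unadjusted p under 0.05, against 2.56% and 2.18% of all genes. Gli1, a transcription factor that is itself a direct target of hedgehog signalling and was among the 2, had 59.3 and 58.5 CPM in control and 74.5, 68.2 and 65.3 in ΔETreg skin, a log2 fold change of 0.24. With any 1 mouse left out, 2 members of the list were higher at that threshold, and 2 were lower without control mouse 1. The ligand Shh (35.9 and 30.04 against 36.9, 29.3 and 34.4), Ptch1 (181 and 187 against 202, 194 and 187) and Hhip (18.4 and 16.5 against 18.5, 16.4 and 17.3) overlapped. In ΔLTreg and ΔTreg skin Gli1 was at 55.8 to 65.0 CPM, narrowly below all 3 ΔETreg mice (65.3 to 74.5). Those groups were harvested on P13 and ΔETreg mice on P9, so that regimen and age cannot be told apart here.

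Genes of cell growth and energy moved with 1 control library. All 20 cytosolic ribosomal protein genes had a negative fold change, with a median of -0.15, and 1 of them, Rps3 (1030 and 1284 CPM in control, 1091, 927 and 958 in ΔETreg skin), was at an unadjusted p under 0.05. All 11 mitochondrially encoded genes tested were negative too, with a median of -0.32 and 2 members lower at that threshold, the scarce mt-Atp6 (1.12 and 1.39 CPM against 0.836, 0.592 and 0.900) and mt-Nd5. The latter, a subunit of respiratory complex I, had 1490 and 2098 CPM against 1596, 1257 and 1356. Control mouse 2 was highest for mt-Nd5 and Rps3, and without it both medians were -0.01 and no member was under 0.05, whereas without control mouse 1 it was 17 of 20 ribosomal and 8 of 11 mitochondrial genes. Short transcripts moved with the same mouse. Over the 1363 genes with the shortest exon length, 57 to 1675 bases, control mouse 2 stood 0.09 above the mean of the 5 libraries on the log2 scale and the median fold change was -0.07. The part of transcript length in these lists was not tested. Several mitochondrial genes had almost no counts next to their neighbours (mt-Co2 1.37 and 1.59 CPM), and nuclear copies share their sequence, so that their values are uncertain.

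Further single genes came from lists whose other members did not move. Among 12 pericyte and smooth muscle genes, Cnn1, calponin of contractile cells, had 5.71 and 5.38 CPM in control and 7.87, 7.40 and 7.50 in ΔETreg skin, while the list median was 0.03. In 16 sebaceous gland genes, Mc5r, the melanocortin receptor of sebocytes, was lower (20.0 and 18.0 against 15.1, 14.6 and 16.5). Ddit3 (CHOP), which like Atf3 lies downstream of the integrated stress response, had 10.9 and 9.92 against 13.3, 11.1 and 14.1, but the 20-gene list of that response had a median within 0.01 of 0 and no other member under 0.05. Of the heat shock genes Hspa4l (65.5 and 64.8 against 71.6, 74.7 and 68.8) was higher and Hspe1 (68.7 and 99.6 against 74.1, 63.7 and 65.3) lower, the latter with control mouse 2 high. Gdf15, a stress cytokine named after its values were seen, had 0.245 and 0.359 CPM against 0.557, 0.855 and 0.728, at a mean of 15 counts.

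For most of the tissue no difference was resolved. Of the 47 lists, 31 had no member at an unadjusted p under 0.05 in edgeR, and DESeq2 called 4 of their 456 list entries on the 5 libraries and 2 on all 11. List medians were within 0.1 of 0 for 38 of 47. Over the 703 distinct list genes tested, 23 were higher and 10 lower at that threshold, which is 4.69% against 4.75% of all genes. The lists with no member at that threshold include 20 hair keratin genes (median 0.04), 22 keratin-associated protein genes (0.10), 14 hair follicle stem cell genes (-0.02), 17 hair matrix and WNT genes (0.02), 20 genes of DNA replication and mitosis (0.02), 20 fibrillar collagen and matrix genes (-0.08) and 14 basement membrane genes (0.02). Dermal adipocyte (-0.01), skeletal muscle (0.01), circadian clock (-0.03), p53 (-0.04) and glucocorticoid-responsive genes (0.04) also had none. A small median was not always a stable one. For the keratin-associated protein genes it was 0.48 without control mouse 1, 0.40 without ΔETreg mouse 1, -0.11 without control mouse 2 and -0.12 without ΔETreg mouse 2. For dermal adipocyte genes it was -0.23 without control mouse 1 and -0.28 without ΔETreg mouse 2, when 4 members were lower at that threshold. The medians of glucocorticoid-responsive, fibrillar collagen and skeletal muscle genes reached 0.27 without control mouse 1, -0.28 without ΔETreg mouse 2 and -0.20 without ΔETreg mouse 3, in that order. Individual levels could still spread widely, as for Krtap4-1 (132 and 78.4 CPM in control, 71.0, 216 and 168 in ΔETreg skin) and the myosin Myh2 (70.8 and 58.4 against 56.4, 50.1 and 158). For haemoglobin, 4 of 8 erythroid genes were lower without overlap, against 10.3% of all genes. Hbb-bs had 118 and 108 CPM in control and 101, 95.02 and 62.0 in ΔETreg skin, and ΔETreg mouse 3 was the lowest.

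**Figure D5:**
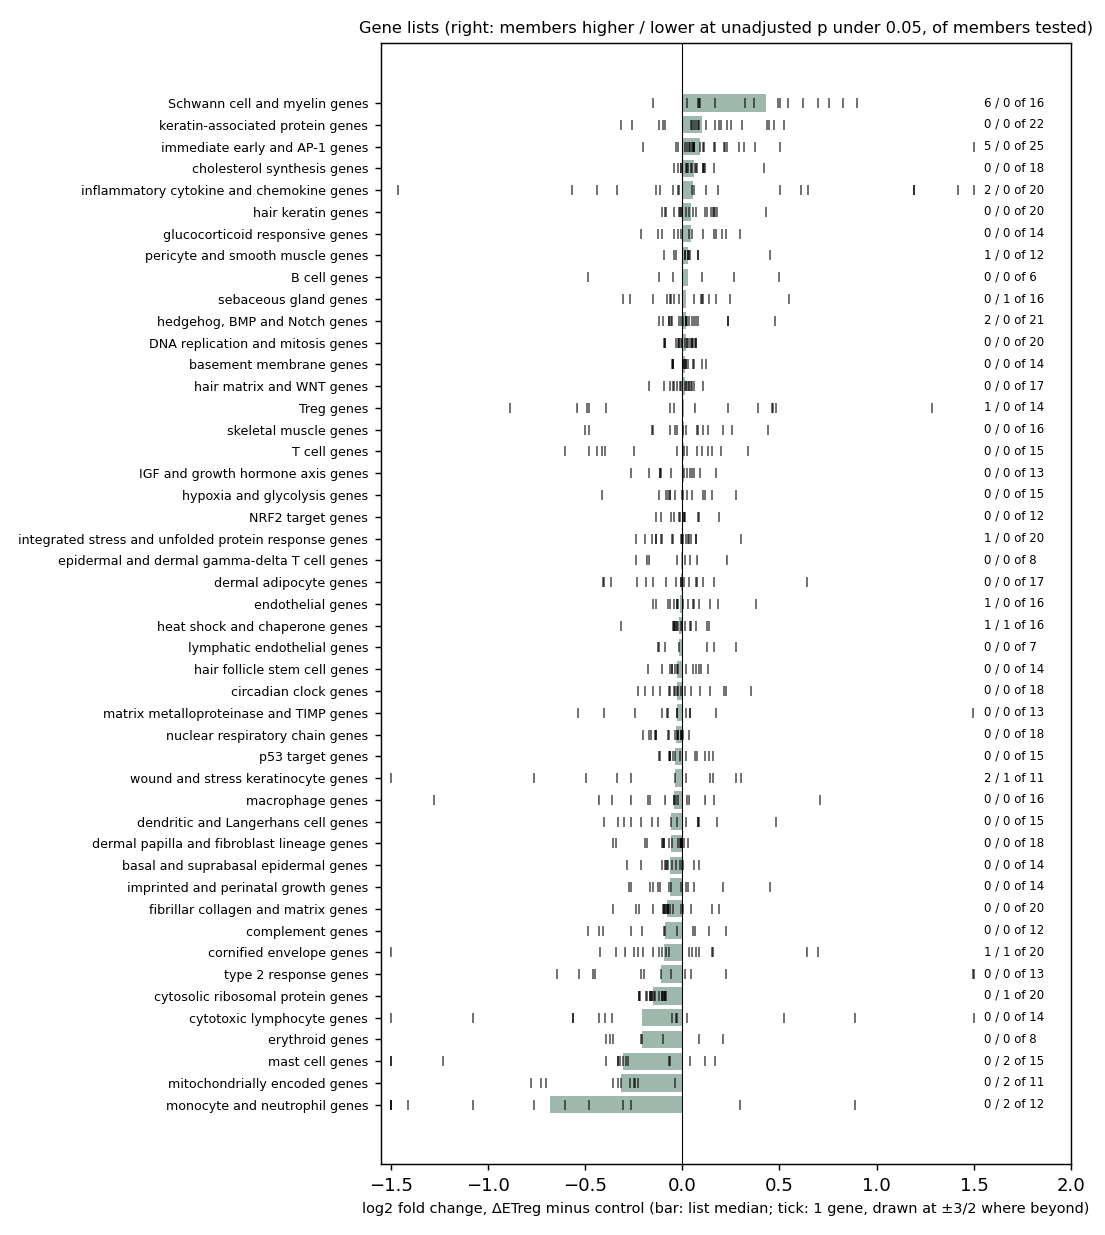
Bars are the median log2 fold change, ΔETreg minus control, of 47 gene lists, and each tick is 1 gene (drawn at 1.5 where beyond). Figures at the right count members higher and lower at an unadjusted p under 0.05 among those tested, with Schwann cell and myelin genes at the top (6 of 16 higher) and monocyte and neutrophil genes at the bottom (2 of 12 lower).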

How the data were processed

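Skin biopsies of single mice were sequenced as paired ends at Genewiz. The authors trimmed reads with Trimmomatic 0.36, aligned them to GRCm38 with STAR 2.5.2b and counted uniquely mapped exonic reads with featureCounts of Subread 1.5.2. The strand setting and the annotation release are not given in the sources used here. The deposited table holds raw counts of 49315 genes, with gene names (174 without one), and coordinates were taken from GENCODE M21. Tests were run with edgeR 4.0.16 under R 4.3.3: filterByExpr by group left 18375 genes, TMM scaling, and 1 quasi-likelihood fit to all 11 libraries with the contrast ΔETreg minus control and Benjamini-Hochberg adjustment. CPM use TMM-scaled library sizes. The SE of a log2 fold change was taken as its size over the root of the F statistic. The floor is 3 counts per library, and it covers counting error only, since reads carry no molecular identifiers. Differences are relative to the TMM scale. Alternatives were DESeq2 1.42.0, other scalings and filters, sex as a covariate, the 5 libraries alone and each mouse left out. The code was tested on simulated counts.

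Genes named are Foxp3, every gene at an adjusted p under 0.05, the 10 with the smallest p in each direction whose groups did not overlap and whose mean count was at least 50, the 2 with the smallest p of each list, further list members, and those said to be named after their values were seen. The members and the 47 lists were chosen with earlier results of these data known. Promoter sequences come from RefSeq on GRCm38.p6, which held 16 of the 20 genes with the smallest p. Some genes of the lists are not reported here by name.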

Additional observations from a re-analysis of the deposited data

How the results depend on the processing

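No paired analysis was possible because the labels carry no replicate numbers that link mice across groups. At this depth, genes with few counts, such as Ifng, Cxcl2 and Tpsab1, had imprecise values, and in some lists 1 library decided the values. With all libraries kept, 0 of 1056 pairs of a named gene and an alternative changed direction. The number of genes at an adjusted p under 0.05 was 1 in the main analysis, 0 with edgeR on the 5 libraries, with at least 10 counts in each of the 5 libraries and with sex as a covariate (adjusted p of Atf3 0.0716, 0.0504 and 0.0786), 10 with DESeq2 on all 11 libraries, 18 with DESeq2 on the 5 and 54 with no filter beyond 1 count. DESeq2 gave 196 higher and 199 lower genes at an unadjusted p under 0.05 on the 5 libraries and 301 and 261 on all 11. Scaling by library totals alone gave 155 lower genes at that threshold and 953 lower without overlap, and with no filter 2703 genes were higher without overlap. Leaving out 1 mouse gave 0 to 7 genes at an adjusted p under 0.05, 329 to 936 higher and 276 to 1041 lower at an unadjusted p under 0.05, and 2561 to 5334 higher and 2906 to 5759 lower without overlap, with the highest value of each without control mouse 1, when 1 control value bounds the group. With a mouse left out, 20 of 668 pairs changed direction, in 19 genes with overlapping values or small fold changes, whose log2 fold changes then ran from -0.39 to 0.0699 for Trdc, from -0.12 to 1.80 for Cd79a, from -1.10 to 0.46 for Ighd, from -0.92 to 0.0553 for C6, from -0.0453 to 0.52 for C4b, from -0.21 to 0.0387 for Pcna, from -0.17 to 0.00102 for Cdk1, from -0.41 to 0.0248 for Ndufa1, from -0.27 to 0.00656 for Atp5c1, from -0.69 to 0.0899 for Thbs2, from -0.22 to 0.0409 for Rgs5, from -0.28 to 0.72 for Myh2, from -1.01 to 0.32 for Myh3, from -0.61 to 0.0885 for Krt2, from -0.22 to 0.0739 for Krt35, from -0.0294 to 0.38 for Mvd, from -0.0882 to 0.22 for Plin4, from -0.0509 to 0.19 for B2m, from -0.0493 to 0.20 for Nfkbia. The cause of these changes was not tested.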
